A study of Mus musculus with 23 samples.

Results

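The Ly6 genes described here are Ly6a, Ly6c1, Ly6c2, Ly6d, Ly6e and Ly6k, which were the 6 of the 24475 genes in the expression table whose symbol was on a fixed list of Ly6 surface antigens. They were measured by RNA sequencing in 23 mouse samples of 3 groups. The controls were 6 thymi labelled normal, from C57BL/6 mice. The other 17 samples were unfractionated spleens of BALB/c Rag2-/-Il2rg-/- mice, which make no T cells, B cells or natural killer cells of their own. Each host had received a thymus lobe of a newborn donor under the kidney capsule, and a leukemia of T-cell precursors (T-ALL) arose from the graft. In 14 of these (WT T-ALL) the donor was a wild-type mouse of the congenic B6.Ly5.1 line, which shares the C57BL/6 background and carries the CD45.1 allele. In the other 3 (Notch3 KO T-ALL) the donor carried a β-galactosidase gene inserted into the first coding exon of Notch3, and the strain background of these donors is not given in the sources used here. Each T-ALL sample was the spleen of an individual case, so the leukemia of each was its own, and each spleen also held host cells of BALB/c origin. Tissue, disease and host strain all differed between the thymi and the spleens, and their effects cannot be told apart in either comparison with thymus.

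Ly6 proteins are small, disulfide-bonded surface molecules held in the outer membrane leaflet by a glycosylphosphatidylinositol anchor, and most of their genes lie in a cluster on mouse chromosome 15. Several have long served as lymphocyte differentiation antigens: Ly6e is the thymic shared antigen (TSA-1, also called Sca-2) of immature thymocytes, Ly6d is the ThB antigen of thymocytes and B-lineage progenitors, and Ly6a is the stem cell antigen Sca-1, which is inducible by interferons. Ly6c1 and Ly6c2 encode the closely related proteins recognised as Ly6C, an antigen of monocytes, plasmacytoid dendritic cells, some T cells and endothelium, and Ly6k is best known from testis. The Ly6 haplotype, and with it the set of cells bearing Ly6A and Ly6C, differs between BALB/c and C57BL/6 mice, which is a textbook property of the strains and was not measured here.

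In the GRCm38 build (mm10) the members were annotated on chromosome 15 within a stretch of 350 kb, 74762056 to 75112066. From the lower coordinate upward the order was Ly6d (74762056 to 74763567, minus strand), Ly6k (74796874 to 74799968, minus), Ly6e (74955025 to 74959904, plus), Ly6a (74994877 to 74998031, minus), Ly6c1 (75044018 to 75048920, minus) and Ly6c2 (75108161 to 75112066, minus). Each value is for a whole gene.

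Ly6c1 and Ly6c2 are near-identical copies, and their coding sequences are shown because the reads of both genes had to be assigned from few differing bases. Each coding sequence, from 4 exons, was 396 bases long in GENCODE release M21, and 387 aligned bases were identical (97.7%). They differ at 9 bases, and the opening 270 bases, which hold 7 of these, are printed 5′ to 3′ with the differing bases in capitals. On the minus strand the coding parts lie between 75045402 and 75048511 for Ly6c1 and between 75108543 and 75111667 for Ly6c2.
Ly6c1: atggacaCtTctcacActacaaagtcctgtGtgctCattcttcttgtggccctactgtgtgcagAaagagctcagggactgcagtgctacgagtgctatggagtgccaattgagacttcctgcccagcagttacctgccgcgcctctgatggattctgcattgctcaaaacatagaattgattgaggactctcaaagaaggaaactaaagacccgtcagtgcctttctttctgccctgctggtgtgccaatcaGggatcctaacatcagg
Ly6c2: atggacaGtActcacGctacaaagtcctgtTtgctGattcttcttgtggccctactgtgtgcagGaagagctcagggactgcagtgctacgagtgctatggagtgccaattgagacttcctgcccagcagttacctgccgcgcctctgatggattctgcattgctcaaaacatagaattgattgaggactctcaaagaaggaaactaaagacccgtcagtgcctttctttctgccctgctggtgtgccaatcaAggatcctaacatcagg

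The longest run shared by the coding sequences was 188 bases, longer than a read of 100 bases. Of the 745 stretches of 100 bases in the Ly6c1 transcript, 114 (15.3%) also occurred in Ly6c2, and the same 114 made up 15.8% of the 723 stretches of the Ly6c2 transcript. No stretch of that length in the reference transcripts of Ly6a, Ly6d, Ly6e or Ly6k occurred in a transcript of another gene. The levels of Ly6c1 and Ly6c2 are therefore uncertain to the extent that reads from the shared stretches were split between them, and BALB/c transcripts were mapped to the C57BL/6 reference. An antisense gene model overlaps Ly6k in GENCODE, and the sources used here do not say whether strand was used in counting, so reads of Ly6k and of that model cannot be told apart.

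The values were deposited as the log2 of a scaled RPKM (reads per length of gene and per depth of library, scaled so that each library had the same upper quartile) plus 1, and are called log2 levels below. Because RPKM is taken per length, levels of different genes may be set side by side, while the read total of each library was not used here, the study's methods giving only an approximate depth common to all. In every thymus the highest log2 level of the family was that of Ly6e, with 9.34 as the lowest, 9.47 as the median and 9.73 as the highest of the 6 samples. Ly6d came next, with a median of 8.48 and a range on the linear scale from 255 to 480 scaled RPKM. These are the antigens described above for thymocytes, and the other members lay several log2 units lower. Ly6k had 2.88, 3.83 and 4.23. Ly6a had 2.64, 3.54 and 4.25. Ly6c2 had 2.34, 3.30 and 3.73, and Ly6c1 was lowest with 1.08, 1.54 and 1.77. Ly6e was above Ly6d in 6 of 6 thymi and Ly6c2 above Ly6c1 in 6 of 6, whereas Ly6k was above Ly6a in 4 of 6 and their ranges overlapped almost fully. For each member the SD over libraries was larger in WT T-ALL than in thymus, as the range plot of the members by library shows. The T-ALL spleens were spread over several log2 units for each member but Ly6e. Among the thymi the spread was widest for Ly6a (2.64 to 4.25).

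**Figure D1:**
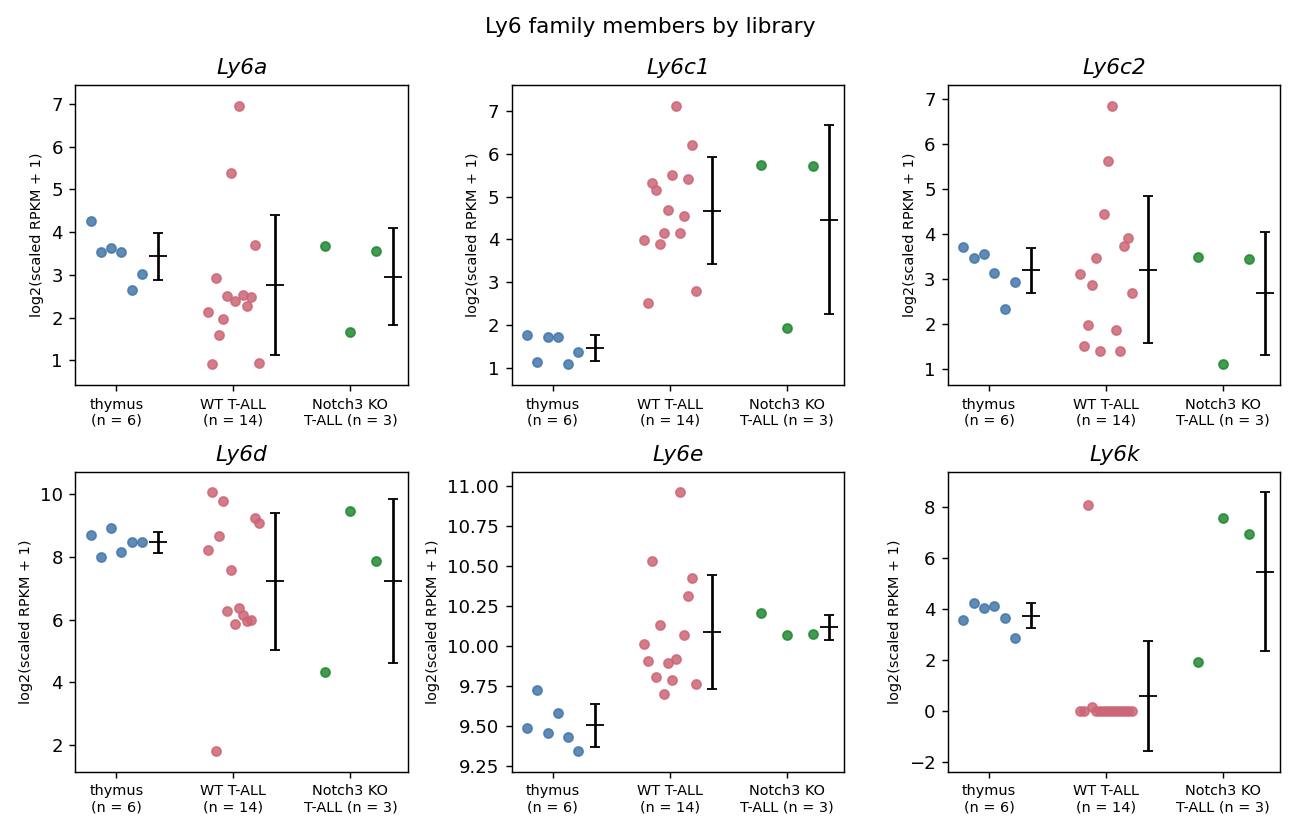
Log2 level, log2(scaled RPKM + 1), of the 6 Ly6 genes in each library (points), with the mean and SD of each group in black (thymus, n = 6, WT T-ALL, n = 14, Notch3 KO T-ALL, n = 3); each panel has its own vertical axis. Ly6c1 was above every thymus in all 17 T-ALL libraries, and Ly6k was listed at 0 in 12 of 14 WT T-ALL libraries. The share of all genes that separate as Ly6c1 does was not counted.

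Markers of other cells moved with the groups, and their values stand here once for all members. Over all genes tested, the test described below called 29.3% higher and 22.3% lower in WT T-ALL than in thymus. In Notch3 KO T-ALL it called 21.2% higher and 16.3% lower. All 12 genes of a list of double-positive thymocyte markers (such as Rag1, Cd8a and Cd4) were lower in both T-ALL groups, and their summed scaled RPKM ran from 5092 to 6599 over the thymi, from 557 to 2142 over WT T-ALL and from 1004 to 2193 over Notch3 KO T-ALL. Of 10 double-negative thymocyte genes 5 were higher in WT T-ALL (Dtx1, Hes1, Lyl1, Mpzl2 and Notch1) and 4 in Notch3 KO T-ALL with none lower, and their sums ran from 72.4 to 172 over the thymi, from 223 to 821 over WT T-ALL and from 224 to 308 over Notch3 KO T-ALL. Of 10 mature single-positive genes 7 were lower in WT T-ALL and 9 in Notch3 KO T-ALL, where S1pr1 reached 1 scaled RPKM, the level of the filter on low values, in none of the 3 libraries, with sums of 342 to 536, 174 to 562 and 198 to 343. Of 6 tested B and plasma cell genes Cd79b and Jchain were lower in each T-ALL group, and the other 4 reached the filter level in thymi alone (such as Cd79a and Ms4a1) or in T-ALL libraries alone (Sdc1), so no call is read from them, with sums over the list of 21.2 to 31.1, 14.8 to 72.9 and 22.3 to 38.0. Of 8 thymic epithelial genes 2 were tested, of which Epcam was lower in both T-ALL groups and Cldn4 in WT T-ALL, with sums of 11.7 to 15.6, 0.54 to 14.6 and 7.35 to 12.4. The part of these lists in the members' differences was not tested. All 12 genes of a neutrophil list were called higher in WT T-ALL and 4 in Notch3 KO T-ALL, with sums from 59.6 to 545 over the thymi, from 667 to 87855 over WT T-ALL and from 209 to 7779 over Notch3 KO T-ALL, and the WT T-ALL libraries 110 and 108 held the highest sums. Of the 12 called in WT T-ALL, Cxcr2 and Ly6g reached the filter level in no thymus, so no call is read from them. Of 12 monocyte and macrophage genes 7 were higher in each T-ALL group, with sums of 27.5 to 121, 70.7 to 3625 and 293 to 743. Of 8 erythroid genes, 5 reached the filter level in no thymus, so no call is read from them. Alas2, Hemgn and Tfrc were higher in each T-ALL group, and the sums over the erythroid list were 21.6 to 33.6, 94.5 to 997 and 516 to 2255. H2-Ea-ps, the class II gene that BALB/c mice transcribe and C57BL/6 mice do not, had log2 levels of at most 0.28 over the thymi, from 2.42 to 6.29 over WT T-ALL and from 3.72 to 5.06 over Notch3 KO T-ALL. Notch3 itself had log2 levels from 2.62 to 4.29 over the thymi, from 3.17 to 5.78 over WT T-ALL and 3.22, 2.59 and 3.74 in the Notch3 KO libraries 1 to 3, so this value over the whole gene does not check the knockout label. In these bulk samples fewer cells of a type and less RNA per cell cannot be told apart. The libraries also fell into a pair of sets that the labels do not name, found after seeing the data from the log2 levels of Sco2 and 1110002L01Rik, both above 2 in thymus 5 and 6, WT T-ALL 3, 4, 5 and 7 and all 3 Notch3 KO libraries (set A) and not in the other 14 libraries (set B).

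WT T-ALL was compared with thymus to ask which members differed between normal thymocytes and T-ALL spleens. Of the 6 members, all of which passed the filter on low values, Ly6c1 and Ly6e were higher in WT T-ALL and Ly6k was called lower. Ly6k passed the filter through thymi and Notch3 KO libraries. Of the WT T-ALL libraries only WT T-ALL 5 reached the filter level, so the Ly6k call is a description and not support. The test was limma's moderated test across 11919 genes with Benjamini-Hochberg adjustment, called at an adjusted p under 0.05, and over all genes tested it called 29.3% higher and 22.3% lower (51.6% in either direction), so 2 of 6 higher and 1 of 6 lower is near that background. Ly6a, Ly6c2 and Ly6d did not pass the test.

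Ly6e, the thymocyte antigen TSA-1, was the most uniform member. Its log2 level in WT T-ALL ran from 9.70 through a median of 9.96 to 10.96, and in the Notch3 KO libraries 1 to 3 it was 10.21, 10.07 and 10.07. All 3 Notch3 KO libraries and 13 of 14 WT T-ALL libraries lay above every thymus, WT T-ALL 36 being the exception. The difference from thymus was 0.58 (SE 0.16, adjusted p = 0.00388) for WT T-ALL and 0.61 (SE 0.23, adjusted p = 0.0382) for Notch3 KO T-ALL by limma. This call depended on the scaling: after quantile normalization of the log2 values the difference was -0.12 in both comparisons (adjusted p = 0.646 and 0.777), while the median difference of all genes went from 0.08 to -0.01 for WT T-ALL and from 0.08 to -0.05 for Notch3 KO T-ALL. Without any 1 of Notch3 KO libraries 1, 2 and 3 or thymi 1, 3, 5 and 6, the adjusted p of Notch3 KO T-ALL against thymus was between 0.0527 and 0.123. Within set A the differences were 0.68 for WT T-ALL (adjusted p = 0.121) and 0.73 for Notch3 KO T-ALL (adjusted p = 0.0911), and within set B the WT T-ALL difference was 0.53 (adjusted p = 0.0499). With the monocyte and macrophage score as a covariate, the Notch3 KO difference was 0.69 (adjusted p = 0.0758). That score, the mean log2 level of the list, ran from 1.32 to 2.60 over the thymi and from 3.42 to 4.46 over Notch3 KO T-ALL. These ranges do not overlap, so against thymus this covariate and the Notch3 KO group cannot be told apart for any member.

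Ly6d, the ThB antigen, had the widest range of the abundant members. In WT T-ALL its log2 level ran from 1.82 through a median of 6.97 to 10.05. In the Notch3 KO libraries 1 to 3 it was 4.34, 9.44 and 7.87. WT T-ALL 4, 14, 128 and 202 and Notch3 KO T-ALL 2 lay above every thymus, 8 WT T-ALL libraries and Notch3 KO T-ALL 1 and 3 lay below every thymus, and WT T-ALL 5 was the lowest of all with 2.52 scaled RPKM against 255 in the lowest thymus. The mean difference from thymus was -1.24 (SE 0.88, 95% interval -3.07 to 0.58, adjusted p = 0.244) for WT T-ALL and -1.24 (SE 1.28, -3.88 to 1.41, adjusted p = 0.463) for Notch3 KO T-ALL by limma. Without WT T-ALL 5 the WT T-ALL difference was -0.83, and the Notch3 KO difference was 0.20 without Notch3 KO T-ALL 1 and -2.35 without 2. The SD over libraries was 2.19 in WT T-ALL and 0.34 in thymus.

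Ly6c1 was the member with the largest rise. In WT T-ALL its log2 level ran from 2.51 through a median of 4.62 to 7.13. In the Notch3 KO libraries 1 to 3 it was 5.75, 1.92 and 5.73. All 17 T-ALL libraries lay above the highest thymus value of 1.77, with WT T-ALL 4 and 202 and Notch3 KO T-ALL 2 closest to it and WT T-ALL 110 highest. The share of all genes that lay above every thymus in all T-ALL libraries was not counted. On the linear scale the median was 1.94 scaled RPKM in thymus, 23.7 in WT T-ALL and 51.9 in Notch3 KO T-ALL. The log2 difference from thymus was 3.21 (SE 0.56, adjusted p = 6.44e-05) for WT T-ALL and 3.00 (SE 0.81, adjusted p = 0.00585) for Notch3 KO T-ALL by limma, on the scale with 1 added, which understates changes from low levels. Within set B the WT T-ALL difference was 3.27 (adjusted p = 0.000479), and within set A it was 3.02 with 4 spleens and 2 thymi (adjusted p = 0.0917). The Notch3 KO difference within set A was 3.24 (adjusted p = 0.0663). With the monocyte and macrophage score as a covariate the difference was 2.39 (adjusted p = 0.00302) for WT T-ALL and 1.73 (adjusted p = 0.153) for Notch3 KO T-ALL. Of 8 endothelial markers 5 were tested, and Egfl7 was higher in both T-ALL groups, while Pecam1 was lower in WT T-ALL. Cdh5, Esam and Vwf reached the filter level in T-ALL libraries alone, with highest log2 levels of 0.30, 0.18 and 0.02 over the thymi, so no call is read from them. The summed endothelial level ran from 32.7 to 39.5 scaled RPKM over the thymi, from 24.7 to 53.7 over WT T-ALL and from 38.1 to 48.1 over Notch3 KO T-ALL, most of it Pecam1. The mean log2 level of the list counts each gene alike. It ran from 0.78 to 0.90 over the thymi, from 1.03 to 1.75 over WT T-ALL and from 1.57 to 1.92 over Notch3 KO T-ALL. That mean includes genes near 0 in the thymi, such as Cdh5, Esam and Vwf, so its separation of the groups is not read as a result. The part of endothelial cells in the Ly6c1 rise was not tested. Without Notch3 KO T-ALL 1 or 3 the Notch3 KO difference was 2.36 (adjusted p = 0.0589) or 2.37 (adjusted p = 0.0635).

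Ly6c2, the copy of Ly6c1, had log2 levels in WT T-ALL from 1.40 through a median of 3.00 to 6.86. In the Notch3 KO libraries 1 to 3 the values were 3.50, 1.11 and 3.46. WT T-ALL 48, 108, 110, 126 and 128 lay above every thymus, with 126 only just above it, and 5 WT T-ALL libraries and Notch3 KO T-ALL 2 lay below every thymus. The mean difference from thymus was 0.01 (SE 0.64, 95% interval -1.30 to 1.33, adjusted p = 0.987) for WT T-ALL and -0.51 (SE 0.92, adjusted p = 0.689) for Notch3 KO T-ALL by limma. Without WT T-ALL 108 and 110 the WT T-ALL difference was -0.49 (adjusted p = 0.377). The Notch3 KO difference was 0.28 without Notch3 KO T-ALL 2 and -0.91 without 1. With the monocyte and macrophage score as a covariate the Ly6c2 difference was -1.60 (SE 0.44, adjusted p = 0.00637) in WT T-ALL by limma. It was -3.00 (SE 0.65, adjusted p = 0.00213) in Notch3 KO T-ALL, where the scores did not overlap with those of thymus, so that call is not read.

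The order of the copies turned over between thymus and T-ALL, a contrast that was chosen after the values were seen. Ly6c2 minus Ly6c1, on the log2 scale, was 1.73 ± 0.40 (SD) over the 6 thymi, -1.46 ± 1.21 over the 14 WT T-ALL and -1.78 ± 0.84 over the 3 Notch3 KO T-ALL libraries. It was above 0 in 6 of 6 thymi (1.26 to 2.35), in 1 of 14 WT T-ALL libraries (-3.34 to 0.11) and in 0 of 3 Notch3 KO libraries (-2.27 to -0.81), and the library above 0 was WT T-ALL 108. The shift of this difference was -3.20 in WT T-ALL against thymus (2-sided exact permutation p = 2.58e-05, the smallest that 38760 splits allow, 7.74e-05 adjusted over 3 comparisons). It was -3.51 in Notch3 KO T-ALL (exact permutation p = 0.0119, the smallest that 84 splits allow, 0.0179 adjusted). Notch3 KO and WT T-ALL differed by -0.31 (exact permutation p = 0.703). The adjustment covers these 3 comparisons and not the choice of this pair among all pairs of members. The p-values against thymus therefore restate a separation that had been seen and are no support for it.

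**Figure D2:**
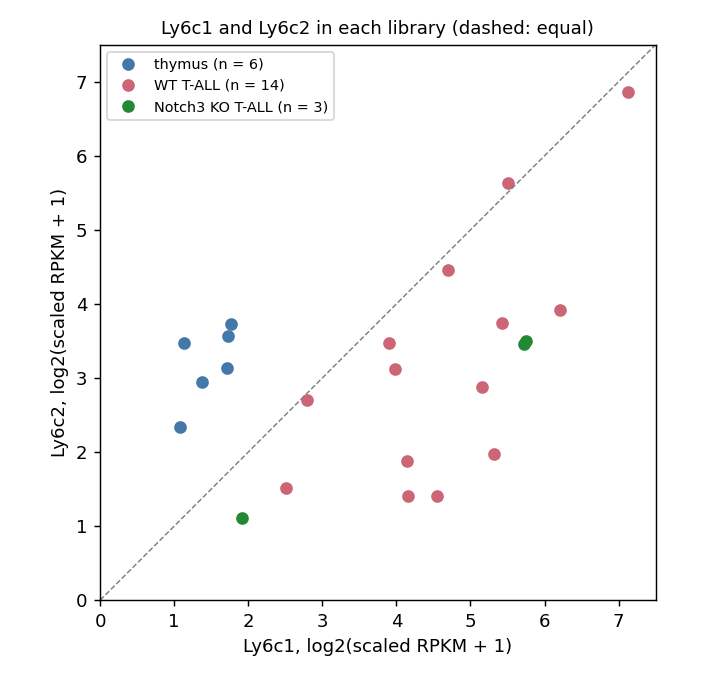
Log2 level of Ly6c2 (vertical) against that of Ly6c1 (horizontal), 1 point per library, with the dashed line at equal levels. All 6 thymi lay above the line, and 13 of 14 WT T-ALL and all 3 Notch3 KO T-ALL libraries lay below it.

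Upstream sequences of this pair, from RefSeq on GRCm38, are shown because the order of the copies reversed between thymus and T-ALL. Of the 6 members 2 were in the promoter table, each with 2 listed starts. The 250 bases before the first listed start were searched, chr15:75048838-75049087 for Ly6c1 and chr15:75111972-75112221 for Ly6c2. Of these, 83 and 95 bases lay inside the annotated gene, which reaches beyond that start, and only the 167 and 155 bases outside it are printed, chr15:75048921-75049087 and chr15:75112067-75112221. Both are given 5′ to 3′ on the minus strand, with every match to a searched motif in capitals. The motifs searched on both strands were GAGGAAGT (a PU.1 and Ets core), TTCNNNGAA (the interferon GAS element), GAAANNGAA (a core of the interferon ISRE element) and ACCACA (a Runx core), where N is any base.
Ly6c1 promoter: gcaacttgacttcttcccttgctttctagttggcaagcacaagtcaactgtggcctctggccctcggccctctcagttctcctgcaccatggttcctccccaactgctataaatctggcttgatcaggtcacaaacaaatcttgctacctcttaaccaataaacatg
Ly6c2 promoter: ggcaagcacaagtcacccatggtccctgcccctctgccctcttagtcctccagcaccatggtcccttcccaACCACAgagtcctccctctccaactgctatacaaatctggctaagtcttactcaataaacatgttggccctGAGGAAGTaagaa

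The 250 bases searched for Ly6c2 held 1 match to GAGGAAGT, which 2.44% of 27025 promoter stretches of the same length held, and 1 match to ACCACA, which 14.2% held. No match to any of the 4 motifs was found in the 250 bases searched for Ly6c1, and none to TTCNNNGAA (7.18% of stretches) or GAAANNGAA (7.16%) in either. This depended on the start used: before the second listed start, Ly6c1 had 1 match to GAGGAAGT and Ly6c2 had 2. A match describes the letters in this window and no more.

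Ly6a, or Sca-1, had log2 levels in WT T-ALL from 0.90 through a median of 2.43 to 6.96. In the Notch3 KO libraries 1 to 3 the values were 3.67, 1.66 and 3.56. In 10 of 14 WT T-ALL libraries and in Notch3 KO T-ALL 2 Ly6a lay below every thymus, and WT T-ALL 48 (5.38) and 110 (6.96) lay above. The mean difference from thymus was -0.68 (SE 0.64, 95% interval -1.99 to 0.64, adjusted p = 0.383) for WT T-ALL and -0.48 (SE 0.92, -2.38 to 1.43, adjusted p = 0.709) for Notch3 KO T-ALL by limma. Without WT T-ALL 108 and 110 the WT T-ALL difference was -0.99 (adjusted p = 0.0943). The Notch3 KO difference was 0.18 without Notch3 KO T-ALL 2 and -0.83 without 1. With the monocyte and macrophage score as a covariate the difference was -1.47 (adjusted p = 0.0994) for WT T-ALL and -1.70 (adjusted p = 0.237) for Notch3 KO T-ALL.

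Ly6k, which is known from testis, was listed at 0 in most WT T-ALL libraries and high in a few T-ALL libraries. It was listed at 0 in 12 of 14 WT T-ALL libraries, at a log2 level of 0.17 in WT T-ALL 7, and at 8.09 (272 scaled RPKM) in WT T-ALL 5. A listed 0 need not mean no expression in this table, since Sco2, a gene for mitochondrial respiration used by every cell, was also listed at 0 in 6 WT T-ALL libraries of set B. Ly6k was listed at 0 in those 6 and also in WT T-ALL 3 and 4 of set A, where Sco2 was at 3.92 and 3.28. In the Notch3 KO libraries 1 to 3 it was 1.91, 7.57 and 6.93. So 13 of 14 WT T-ALL libraries and Notch3 KO T-ALL 1 lay below every thymus (6.38 to 17.7 scaled RPKM), and WT T-ALL 5 and Notch3 KO T-ALL 2 and 3 lay above. WT T-ALL 5 was also the library with the lowest Ly6d. The difference from thymus was -3.15 (SE 0.91, adjusted p = 0.00637) for WT T-ALL and 1.73 (SE 1.32, adjusted p = 0.315) for Notch3 KO T-ALL by limma. Of the WT T-ALL libraries only WT T-ALL 5 reached the filter level, so the p for WT T-ALL is not read as support. With so many libraries at 0 the size depended on the offset added before the log, and the WT T-ALL difference was -6.06 with 0.1 and -8.95 with 0.01 in place of 1. The Notch3 KO difference was 3.51 without Notch3 KO T-ALL 1, 0.68 without 2 and 1.00 without 3, with no call. Without WT T-ALL 5 the WT T-ALL difference was -3.73, and within set B, where all 10 spleens were listed at 0, it was -3.98. Among the thymi and WT T-ALL libraries of these fits only thymi reached the filter level of 1 scaled RPKM, so these values are a description and their p is not given. Within set A it was -1.19 (adjusted p = 0.744), and with the monocyte and macrophage score as a covariate it was -2.33 (adjusted p = 0.0808).

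For Notch3 KO T-ALL against thymus, Ly6c1 and Ly6e were higher by limma and none of the 6 members was lower (0 also at an unadjusted p under 0.05), where 21.2% and 16.3% of all genes were called higher and lower (37.5% in either direction). Both comparisons with thymus share the 6 control samples, so the values are given side by side and were not tested for likeness. The plot of the differences shows the members' values for all 3 comparisons with their intervals.

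**Figure D3:**
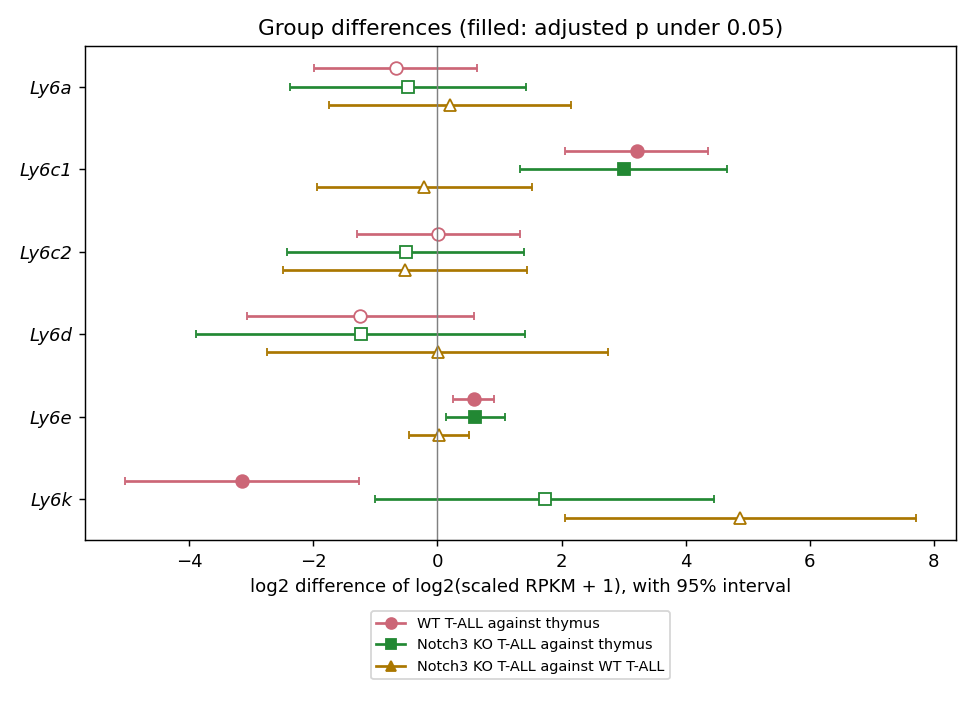
Log2 difference (horizontal) of each Ly6 gene (vertical) in the 3 comparisons, with 95% intervals from limma; filled symbols passed an adjusted p of 0.05 and open symbols did not. Ly6c1 and Ly6e were above 0 against thymus in both T-ALL groups, and Ly6k was at -3.15 in WT T-ALL and 1.73 in Notch3 KO T-ALL. The filled Ly6k symbol is a description, as WT T-ALL 5 was the only WT T-ALL library at the filter level.

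Notch3 KO and WT T-ALL were compared to ask whether the loss of Notch3 in the donor changed the T-ALL transcriptome. None of the 6 members was called by limma among 11677 genes, where 0.591% of all genes were called higher and 0.0257% lower (0.617% in either direction), and 1 member, Ly6k, had an unadjusted p under 0.05. Ly6k was 4.88 higher (SE 1.35, 95% interval 2.05 to 7.71, p = 0.00194, adjusted p = 0.116), and the exact permutation test gave p = 0.00588, with 0.00147 as the smallest that 680 splits allow. Of the WT T-ALL libraries only WT T-ALL 5 reached the filter level and 12 were listed at 0. No p for Ly6k in this comparison is therefore read as support. With all 3 groups in the limma fit the adjusted p was 0.0299, without Notch3 KO T-ALL 1 the difference was 6.66 (adjusted p = 0.0241), and without WT T-ALL 5 it was 5.46 and also called. In the latter fit only the 3 Notch3 KO libraries reached the filter level, so its p is no support and is not given. These were the 2 calls among the 17 fits that each left out 1 library, in which the difference ran from 3.83, without Notch3 KO T-ALL 2 (adjusted p = 0.742), to 6.66. With offsets of 0.1 and 0.01 the difference was 7.76 (adjusted p = 0.0641) and 10.64 (adjusted p = 0.103). All 3 Notch3 KO libraries belonged to set A, within which the difference was 3.40 (SE 2.21, adjusted p = 0.670) with 3 and 4 libraries.

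The intervals of the other members were wide. The difference between Notch3 KO and WT T-ALL lay within -1.75 to 2.15 for Ly6a, -1.94 to 1.52 for Ly6c1, -2.48 to 1.44 for Ly6c2 and -2.75 to 2.75 for Ly6d. It was narrowest for Ly6e, with -0.45 to 0.51. Notch3 KO T-ALL 2 stood apart from the other 2 libraries of its group: it had the lowest Ly6a, Ly6c1 and Ly6c2 and the highest Ly6d and Ly6k of the 3. Its neutrophil score was 2.53 against 6.65 and 6.69, and its Rag1 log2 level was 8.62 against 3.81 and 4.72.

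Members were set against the marker scores over the 14 WT T-ALL libraries, where a score is the mean log2 level of a list, in 55 relations of 5 members to 11 lists. Ly6k was left out because it was at 0 in 12 libraries. Ly6c2 rose with the neutrophil score (r = 0.890, permutation p = 6.0e-05, adjusted p = 0.0033, rho = 0.802, permutation p = 0.00101, adjusted p = 0.0514). Without WT T-ALL 108 and 110 the r was 0.676, and it was 0.881 within the 10 libraries of set B. The neutrophil list holds Ly6g, a neighbour of Ly6c2 and itself a Ly6 gene.

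Ly6c2 was also related to the monocyte and macrophage score (r = 0.822, permutation p = 0.00025, adjusted p = 0.00688, rho = 0.776, permutation p = 0.00187, adjusted p = 0.0514). Without the same 2 libraries the r was 0.565, and within set B it was 0.789. Its relation to the host transcript H2-Ea-ps (r = 0.690, permutation p = 0.00595, adjusted p = 0.0779, rho = 0.547, permutation p = 0.0459, adjusted p = 0.315) did not pass after adjustment. How much of the Ly6c2 level came from host cells and how much from leukemic cells was not tested.

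Ly6a was related to the interferon response score (r = 0.870, permutation p = 0.0008, adjusted p = 0.0147, rho = 0.688, permutation p = 0.00796, adjusted p = 0.109). This rested in part on WT T-ALL 48 and 110, the libraries with the highest scores (4.13 and 3.93), without which r was 0.511, and it was 0.845 within set B. Of the 15 interferon genes 2 were higher and 6 lower in WT T-ALL than in thymus (of the 6, Ifit3 and Mx1 reached the filter level in no WT T-ALL library), with a summed scaled RPKM from 197 to 495 over the thymi and from 143 to 550 over WT T-ALL. None of the other 52 relations, which include those to the double-negative, double-positive and mature thymocyte scores, had an adjusted Pearson p under 0.05, and no relation had an adjusted Spearman p under 0.05. Set A held 4 WT T-ALL libraries, too few for a value of its own.

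The thymocyte stage scores gave no relation that passed for Ly6d. Ly6d and the double-positive score had r = 0.326 (permutation p = 0.255, adjusted p = 0.555) and rho = 0.569 (permutation p = 0.0367, adjusted p = 0.288), with r = 0.533 without WT T-ALL 3 and 110 and 0.635 within set B.

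**Figure D4:**
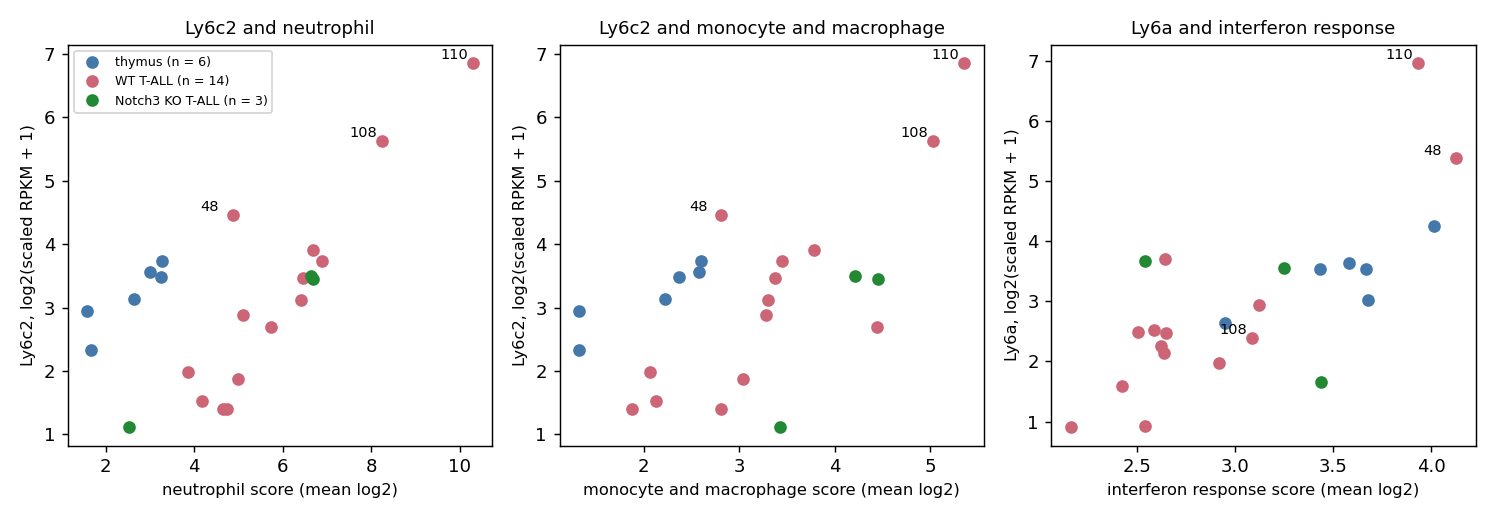
Log2 level of Ly6c2 against the neutrophil score and the monocyte and macrophage score, and of Ly6a against the interferon response score (each score is a mean of log2 levels), 1 point per library, with WT T-ALL 48, 108 and 110 named by their numbers. WT T-ALL 110 was highest on the vertical axis in all 3 panels, and WT T-ALL 108 came next for Ly6c2 and 48 for Ly6a.

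The genes most like each member over the 14 WT T-ALL libraries were found by Pearson r of log2 levels among 8084 genes, as a description without a test. For Ly6c2 these were Cd63 (r = 0.945), Dstn, Dhrs7 and AA467197, with r from 0.848 to 0.858 once WT T-ALL 108 and 110 were left out. For Ly6c1 they were Aldh3a2 (0.891), Tagln2, Fxyd5 and Unc119. For Ly6a they were Sp140 (0.887), the interferon-inducible chemokine gene Cxcl9, Chp1 and Cnih4, and without the 2 libraries farthest from the median the r was 0.54 for Sp140, -0.07 for Cxcl9, 0.55 for Chp1 and 0.10 for Cnih4.

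Ly6d was most like Med30 (r = 0.906), Nudt1, Cdpf1 and Cmc2, of which Med30 and Cdpf1 are also on chromosome 15. Ly6e was most like Arl2bp (0.914), Cpped1, Kat7 and Mbtps1. Ly6k was most like the histone gene Hist1h2ap (0.9998), Bcl7b, Sirt2 and Sugp1, a likeness that rests on WT T-ALL 5 alone.

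Genes around the members were counted to set them in their place on the chromosome. Of 22 genes tested within 1 Mb of the members, 8 were called higher (36.4%) and 3 lower in WT T-ALL than in thymus. In Notch3 KO T-ALL 4 were called higher (18.2%) and 2 lower. Over all genes tested 29.3% were higher and 22.3% lower in WT T-ALL, and 21.2% and 16.3% in Notch3 KO T-ALL, so these counts are near that background. The 8 include Ly6g, which passed the filter through T-ALL libraries alone. Over the whole of chromosome 15 the test called 211 of 472 genes higher (44.7%) and 59 lower in WT T-ALL, with a median difference of 0.39 against 0.08 over all genes, and 146 higher (30.9%) and 42 lower in Notch3 KO T-ALL, with a median of 0.44. The Ly6e differences of 0.58 and 0.61 lay near these chromosome medians. By library, the chromosome 15 median minus that of the other autosomes ran from -0.04 to 0.02 over the thymi, from 0.24 to 0.44 over Notch3 KO T-ALL and from 0.26 to 0.49 over 11 WT T-ALL libraries, and it was 0.00, -0.06 and -0.09 in WT T-ALL 5, 36 and 48. WT T-ALL 36 was the WT T-ALL library with the lowest Ly6e, while WT T-ALL 5 had 10.53 and WT T-ALL 48 had 9.89. The part of this chromosome-wide shift in the members' differences was not tested. From exome data the study reports gain of the same chromosome, which it ascribes to frequent trisomy (an extra copy) in mice. Copy number was not used here, and its relation to the shift by library was not tested.

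**Figure D5:**
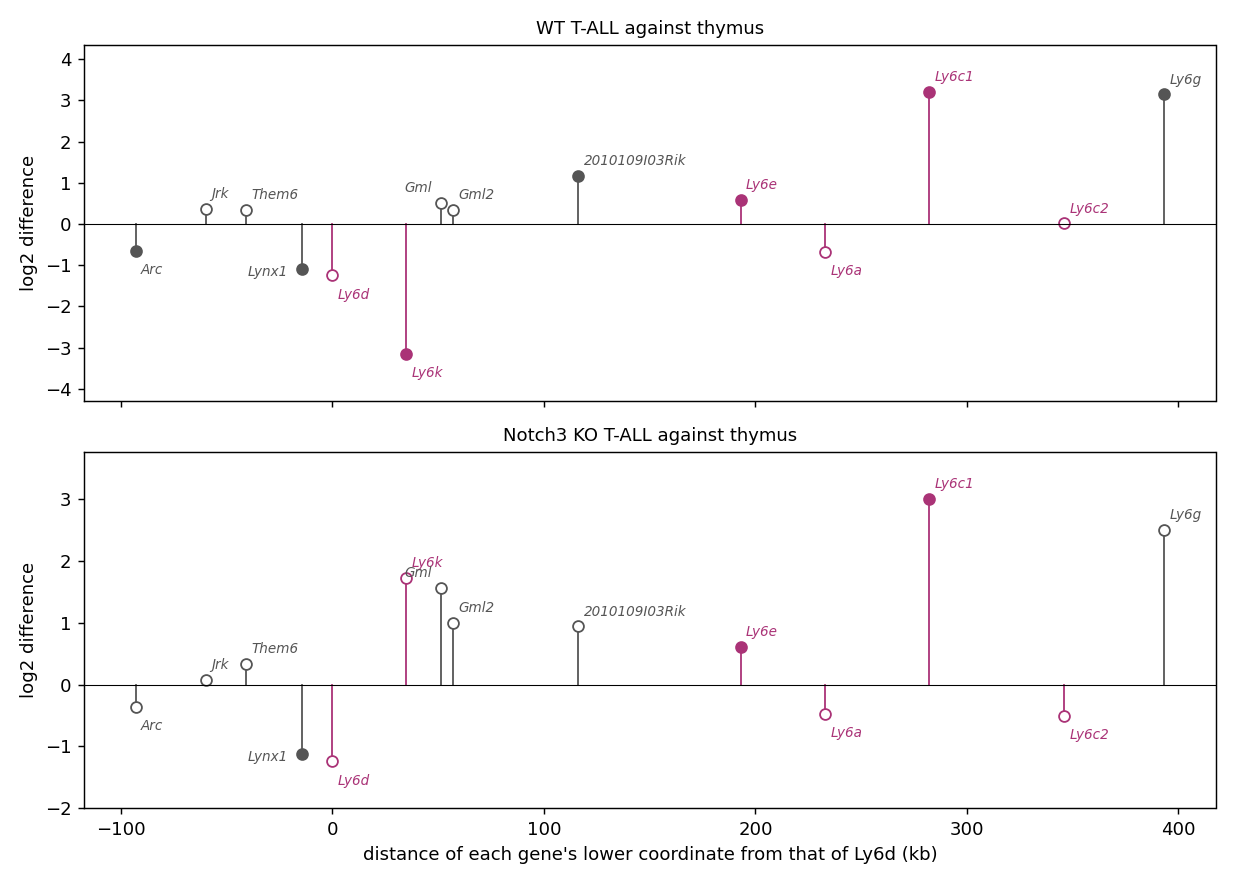
Log2 difference (vertical) from thymus of the 6 Ly6 genes (coloured) and the tested neighbours (grey) by distance of their lower coordinate from that of Ly6d (horizontal, kb); filled points passed an adjusted p of 0.05. Genes with differences of either sign lay within the cluster, with Ly6c1 at 3.21 and Ly6c2 at 0.01 in WT T-ALL.

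The nearest tested neighbour on the Ly6d side was Lynx1, a modulator of nicotinic receptors, which was lower in both T-ALL groups (-1.10, SE 0.27, adjusted p = 0.00169, and -1.12, SE 0.39, adjusted p = 0.0261). On the Ly6c2 side it was Ly6g, the neutrophil antigen of the same family, which differed from thymus by 3.15 in WT T-ALL and 2.50 in Notch3 KO T-ALL. Ly6g reached the filter level of 1 scaled RPKM in no thymus and passed the filter through T-ALL libraries alone, so no p is given for it. Gml, next to Ly6k, had log2 levels of 3.82 in WT T-ALL 4, 3.06 in WT T-ALL 126 and 4.36 in Notch3 KO T-ALL 2, and at most 0.52 in every other library. Of these 3 libraries only Notch3 KO T-ALL 2 also had Ly6k above thymus. D730001G18Rik, chosen after its values were seen, had 1.46, 0.94 and 0.46 in WT T-ALL 5 and Notch3 KO T-ALL 2 and 3, the libraries with the highest Ly6k, and at most 0.35 elsewhere.

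The other genes of the wider Ly6 and urokinase receptor family were mostly below the filter on low values. Of 34 on the list 30 were in the table and 9 passed the filter, and in WT T-ALL Cd177 and Plaur were higher and Lynx1 and Lypd6b lower, where the test called 29.3% higher and 22.3% lower over all genes. Ly6g and Cd59a were also called, but passed the filter only through the groups where they were higher, Ly6g through T-ALL and Cd59a through thymus and Notch3 KO libraries, so their calls are not counted. Cd177, a neutrophil surface antigen, differed by 3.07 (SE 0.73, adjusted p = 0.00135), and Plaur, the urokinase receptor, by 1.26 (SE 0.51, adjusted p = 0.0429). Cd59a, an inhibitor of the complement membrane attack complex, had a highest log2 level of 1.10 over the thymi, 0.84 over WT T-ALL and 1.31 over Notch3 KO T-ALL. Lypd6b differed by -2.63 (SE 0.25, adjusted p = 2.17e-08) in WT T-ALL and -2.59 (SE 0.36, adjusted p = 1.17e-05) in Notch3 KO T-ALL, where Lynx1 was the other gene called. None of 8 was called by limma between Notch3 KO and WT T-ALL, and 0 of 8 had an unadjusted p under 0.05.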

How the data were processed

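RNA from 6 normal thymi, 14 WT T-ALL spleens and 3 Notch3 KO T-ALL spleens was made into stranded mRNA libraries, 1 per sample, and read as 100-base pairs. Per the labels and the methods of the study the authors used ArrayStudio and its OSA aligner (version not given in the sources used here) against transcripts of mm10, and computed RPKM per gene. The deposited values are log2 values: the log2 of RPKM plus 1 after each library was scaled to an upper quartile of about 10, a scale that was inferred from the values (upper quartile at a log2 value of 3.46 in each library). No counts were used, so counting error could not be given; the study's methods state an approximate depth common to all samples, and totals per library were not used here.

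From these values, log2 levels were compared by limma version 3.58.1 (R version 4.3.3; linear fits, empirical Bayes with a mean-variance trend and robust variances), for genes with at least 1 scaled RPKM in at least 3 fitted samples, with Benjamini-Hochberg adjustment over all genes tested and a threshold of 0.05. Both comparisons with thymus came from a fit of all 3 groups, and Notch3 KO against WT T-ALL from the 17 T-ALL samples. Single values were also compared with 2-sided exact permutation tests over samples, and correlations with 100000 permutations (Python 3.11.15, scipy 1.17.1). All 6 members were described. Of the wider family, up to 8 called genes with the largest difference were named, and of the neighbours the nearest on each side. The 4 most like genes of each member were taken from genes with a mean of at least 5 scaled RPKM in WT T-ALL, without predicted genes. The steps were tested on simulated data.

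The members, gene lists and tests were chosen with earlier results of these data known. Replicates are separate samples in the labels, each from its own mouse with T-ALL. Thymi are numbered separately, and nothing says whether each came from its own animal. Sample numbers did not pair samples across groups (correlations of same-numbered samples -0.24 to 0.15). Ly6g2, Ly6l, Ly6m and Slurp2 were not analysed here. Values of some genes on the marker lists are not reported here. Other offsets, filters, scalings, covariates and left-out libraries were tried.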

Additional observations from a re-analysis of the deposited data

Results flagged for a closer look

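The change of Ly6k from thymus differed between the T-ALL groups by 4.88 on the log2 scale, being 1.73 in Notch3 KO T-ALL and -3.15 in WT T-ALL (adjusted p = 0.0299 for the difference, by limma in the fit of all 3 groups). In the fit of the 17 T-ALL samples the same difference had an adjusted p of 0.116. Of the WT T-ALL libraries only WT T-ALL 5 reached the filter level of 1 scaled RPKM, so neither p is read as support. The Notch3 KO value of 1.73 was 3.51 without Notch3 KO T-ALL 1, 0.68 without 2 and 1.00 without 3. Ly6k was listed at 0 in 12 of 14 WT T-ALL libraries and was at 8.09 in WT T-ALL 5, while the Notch3 KO libraries had 1.91, 7.57 and 6.93. All 3 Notch3 KO libraries were in set A, within which the difference was 3.40 (adjusted p = 0.670).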

How the results depend on the processing

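Counts of members called were the same within 1.5 times in 58 of 73 comparisons with an alternative setting that leaves out no single library. Higher in WT T-ALL against thymus, the count was 1 after quantile normalization and 0 with the erythroid score as a covariate, with the replicate number as a block and within set A. Lower there, it was 0 under the last 3, and with the monocyte and macrophage score it stayed at 1 with Ly6c2 in place of Ly6k. Higher in Notch3 KO T-ALL against thymus, it was 1 after quantile normalization and with the replicate block, and 0 with either score as a covariate and within set A, and with the monocyte and macrophage score 1 member was lower. Higher in Notch3 KO against WT T-ALL, it was 1 with all 3 groups in the fit. Leaving out single libraries gave 2 and 1 throughout for WT T-ALL against thymus, 0 to 2 higher and 0 lower for Notch3 KO T-ALL against thymus, and 0 to 1 higher and 0 lower between the T-ALL groups. Of the 55 relations to scores 3 passed by Pearson and 0 by Spearman correlation. The erythroid scores of thymus (0.80 to 1.12) and T-ALL (3.29 to 7.45) do not overlap, so that covariate and tissue cannot be told apart. The same holds for the monocyte and macrophage scores of thymus (1.32 to 2.60) and Notch3 KO T-ALL (3.42 to 4.46).

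Under the replicate block Ly6c1, Ly6e and Ly6k differed by 2.22, 0.64 and -1.66 in WT T-ALL (adjusted p = 0.0700, 0.0599 and 0.505, limma) and Ly6c1 and Ly6e by 3.02 and 0.58 in Notch3 KO T-ALL (adjusted p = 0.0231 and 0.0713). Same-numbered samples did not deviate together, and only samples that share a number with another group inform this fit. No paired analysis was possible for Notch3 KO against WT T-ALL because the groups share only number 3.

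Signs turned as follows, with no call unless given. Ly6e against thymus was -0.12 after quantile normalization in both groups. Ly6c2 in WT T-ALL was -0.076 and -0.088 with offsets of 0.1 and 0.01, -1.60 with the monocyte and macrophage score (called), -1.41 with the erythroid score, -0.93 with the replicate block, -0.036 with the set of libraries as a term, -0.27 within set A and -0.49 without WT T-ALL 108 and 110. In Notch3 KO T-ALL against thymus, with the set as a term and within set A, Ly6a was 0.27 and 0.13 and Ly6c2 was 0.20 and 0.045. Between the T-ALL groups Ly6a was -0.21 with the monocyte and macrophage score. Ly6c1 was 0.41 with the erythroid score, 0.22 with the set as a term and within set A and 0.062 without WT T-ALL 108 and 110. Ly6c2 was 0.31 with the set as a term and within set A. Ly6d was -0.0032 after quantile normalization, -0.13 and -0.83 with the monocyte and macrophage and the erythroid score and -0.18 without WT T-ALL 108 and 110, where Ly6e was -0.0098. Leaving out single libraries, the values ranged from -0.27 to 0.15 for Ly6c2 in WT T-ALL. In Notch3 KO T-ALL against thymus they ranged from -0.83 to 0.18 for Ly6a, -0.91 to 0.28 for Ly6c2 and -2.35 to 0.20 for Ly6d. Between the T-ALL groups they ranged from -0.15 to 0.85 for Ly6a, -0.85 to 1.06 for Ly6c1, -0.93 to 0.27 for Ly6c2, -1.11 to 1.44 for Ly6d and -0.016 to 0.097 for Ly6e. Unless shown by the setting's own construction, the cause was not tested. Totals per library were not used here, so counting error is not given.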
